A study of Mus musculus with 18 samples.

Results

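A set of 10 liver genes of the growth hormone (GH) axis were followed across 6 groups of mouse livers profiled on Affymetrix expression arrays. They were the receptor Ghr, the transcription factor Stat5b, the secreted products Igf1 and Igfals, the feedback inhibitors Socs2 and Cish, the repressors Bcl6 and Cux2, and the sex-biased outputs Hsd3b5 and Slco1a1. Members were found by an exact match of the platform's gene symbol, using probe sets with 1 symbol only, which gave 10 of 18193 genes and 25 of 45101 probe sets. The probe set with the highest mean over all arrays stood for each gene. In RefSeq (GRCm38.p6) Ghr lies at chr15:3317755-3583352, Igf1 at chr10:87858265-87937047, Hsd3b5 at chr3:98618636-98645534 and Slco1a1 at chr6:141907281-141946962. Of the 25 probe sets 22 passed the filter on dim signals, and all 10 genes were among the 13228 tested.

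All livers came from wildtype CD1 mice, an outbred strain, and no group carried an altered allele. CMPF is a furan fatty acid metabolite found in plasma, given here at 6 mg/kg/day, and the high-fat diet (HFD) supplied 60% of its energy as fat. In the prevention model the groups were CMPF given for 1 week before 4 weeks on HFD (4 to 5 weeks in the series' design text), vehicle before the same diet, and a chow control. In the reversal model the mice ate HFD for 6 weeks and were then injected with CMPF or vehicle for 2 weeks, beside a chow control. Each group had 3 arrays, 18 in all. The labels do not give the age or sex of the mice, say what the chow controls received, or say whether each array was a separate animal.

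Pituitary GH binds its receptor on hepatocytes, where the kinase JAK2 phosphorylates STAT5, which enters the nucleus and activates genes such as Igf1, Socs2 and Cish. In rodents the male pituitary releases GH in pulses and the female more continuously, and the pattern sets which sex-biased genes the liver expresses. Hsd3b5, a hydroxysteroid dehydrogenase, and Slco1a1, an organic anion transporter, belong to the male programme in mouse liver, BCL6 represses targets shared with STAT5, and CUX2 is a repressor of male-biased genes in female liver.

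Promoter windows of RefSeq (GRCm38.p6, 250 bases before to 50 bases after each transcript start) were searched for TTCNNNGAA, the palindromic motif that STAT5 recognises, which reads the same on both strands. Windows were held for 9 of the 10 genes, 15 windows in all, and 5 windows of 3 genes contained the motif. Among 32851 windows of all genes 8.3% held at least 1 match, 0.457% at least 2 and 0.0335% at least 3. The windows of Cish and Bcl6 are printed because these genes carry the motif and spread widely within groups in the results; capitals mark the matches. The Cish window had 2 matches, just after the start, and one Bcl6 window had 3.
Cish, chr9:107296409-107296708, plus strand: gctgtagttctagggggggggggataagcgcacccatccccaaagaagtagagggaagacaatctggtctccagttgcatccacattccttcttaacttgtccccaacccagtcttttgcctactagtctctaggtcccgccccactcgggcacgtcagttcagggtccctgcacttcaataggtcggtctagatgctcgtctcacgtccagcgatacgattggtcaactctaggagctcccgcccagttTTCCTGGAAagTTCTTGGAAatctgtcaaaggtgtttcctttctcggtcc
Bcl6, chr16:23981234-23981533, minus strand: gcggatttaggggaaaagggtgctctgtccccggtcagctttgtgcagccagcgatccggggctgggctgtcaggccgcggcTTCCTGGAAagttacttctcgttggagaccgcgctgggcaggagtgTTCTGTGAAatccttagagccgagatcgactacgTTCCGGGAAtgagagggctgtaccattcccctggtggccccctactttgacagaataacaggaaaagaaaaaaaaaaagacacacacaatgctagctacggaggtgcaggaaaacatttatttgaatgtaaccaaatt
Bcl6, chr16:23988803-23989102, minus strand: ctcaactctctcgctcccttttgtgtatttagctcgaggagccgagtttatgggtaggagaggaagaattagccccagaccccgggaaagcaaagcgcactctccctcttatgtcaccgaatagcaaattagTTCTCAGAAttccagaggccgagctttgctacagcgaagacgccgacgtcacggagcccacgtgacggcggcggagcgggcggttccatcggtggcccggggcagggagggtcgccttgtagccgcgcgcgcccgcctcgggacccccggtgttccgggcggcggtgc
The matches in Cish lay at bases 251 to 259 and 262 to 270 of its window, and those in the first Bcl6 window at bases 83 to 91, 129 to 137 and 163 to 171. The other Bcl6 window had 1 match at bases 133 to 141, and 2 Igfals windows had 1 each. A match describes these letters only.

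The deposited values are log2 signals, and their mean per array was 5.08 to 5.10 in prevention and 5.25 to 5.26 in reversal, so levels were compared within a model. Between prevention CMPF arrays 2 and 3 no gene differed over 2-fold (0 genes), where the remaining 152 array pairs had 115 or more such genes each. These arrays were averaged and counted as 1 sample. Reversal chow array 2 stood apart, with a median correlation of 0.948 to the other arrays of its model. The 3′ to 5′ index, the log2 signal of the 3′ minus the 5′ control probe sets of Gapdh and actin, was 2.66 to 3.19 on prevention HFD arrays, against 0.968 to 1.98 on prevention chow arrays. In reversal it was 1.55 to 3.43 on HFD arrays, against 2.51 to 3.57 on chow arrays. Hepatocyte markers were bright on every array, with Alb between 14.38 and 14.69. Xist was 3.80 to 5.25 and the Y-linked Eif2s3y 8.48 to 9.24 across all arrays. The number of arrays per group limits the precision of all that follows.

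Differences were tested with limma in 1 fit of the 6 group means over 17 samples, and "adjusted p" is its Benjamini-Hochberg value over all 13228 genes, with a threshold of 0.05. In the prevention model 3 of the 10 genes fell on HFD relative to chow, Igf1, Hsd3b5 and Slco1a1, where 5.57% of all genes passed the test, 3.83% as lower and 1.74% as higher. The median difference was -0.45 over the 10 genes and 0.0016 over all genes tested. In reversal Ghr rose on HFD relative to chow and the other 9 genes did not pass, where 2.45% of all genes did, 2.17% as higher and 0.28% as lower. CMPF on HFD against HFD gave 0 of 10 calls in prevention (background 0.0%) and 0 of 10 in reversal (background 0.0378%, 0.0227% as lower). At an unadjusted p under 0.05, 1060 genes differed between CMPF on HFD and HFD in prevention, 2 of the 10 among them, and 634 in reversal, none of the 10 among them. The comparisons with CMPF and those with chow share the HFD arrays of their model.

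**Figure D1:**
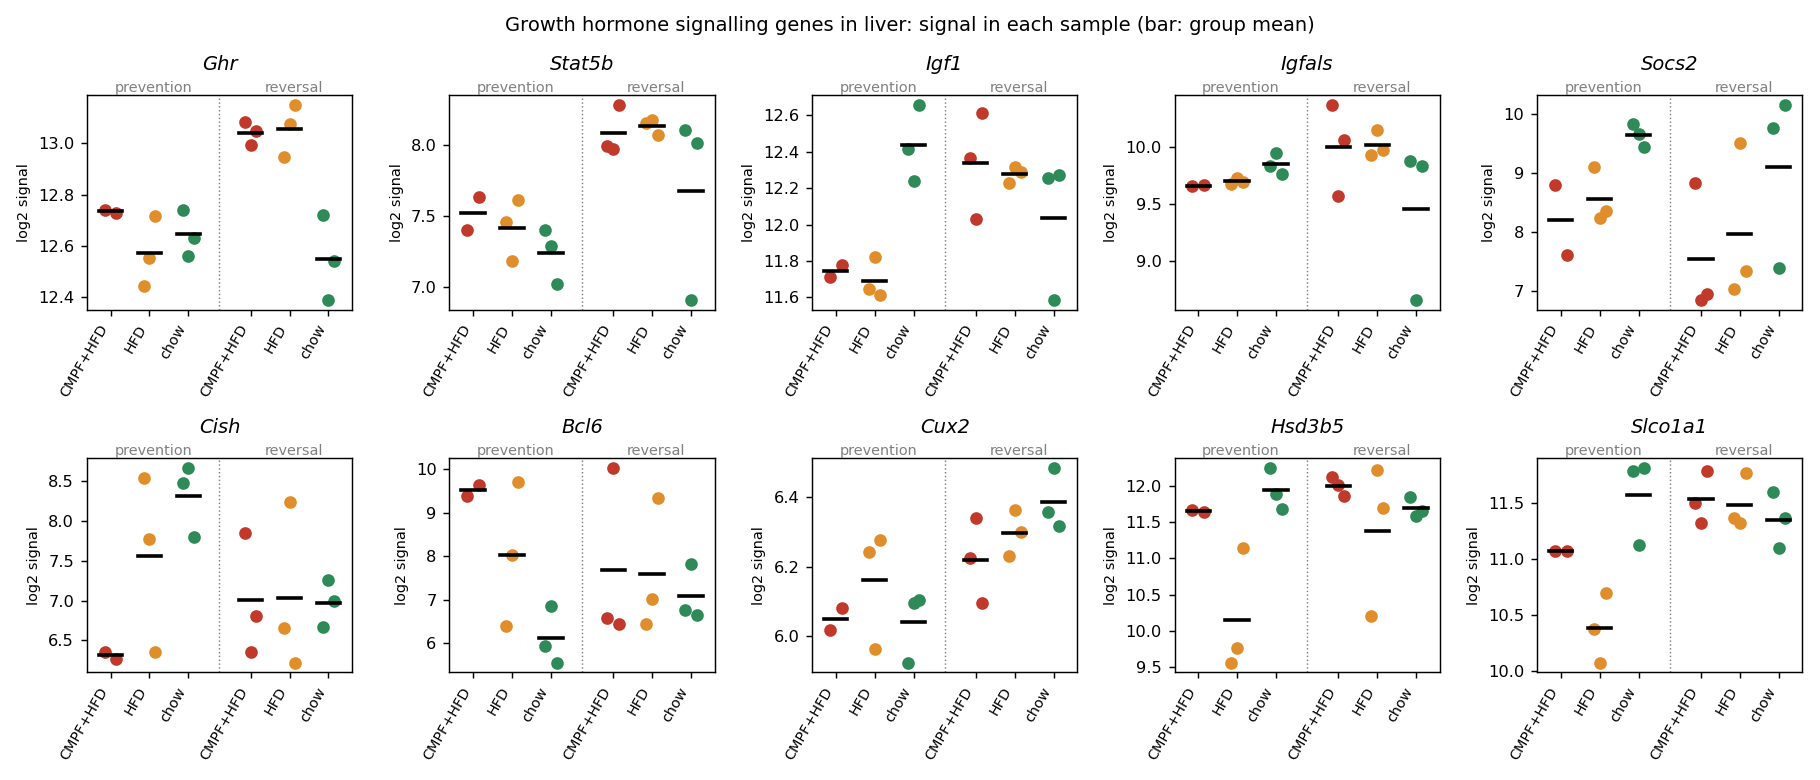
Signal of the main probe set of each of the 10 genes (y axis, log2 signal, own scale per gene) in each of the 17 samples, with CMPF on HFD, HFD and chow from left to right within each model and bars at group means. Igf1, Hsd3b5 and Slco1a1 lie lower on prevention HFD than on prevention chow arrays without overlap, and Ghr lies higher on both reversal HFD groups than on reversal chow.

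Ghr, the receptor, had log2 signals of 13.08, 13.00 and 13.05 in CMPF-treated and 12.95, 13.08 and 13.15 in vehicle-treated reversal HFD livers, against 12.72, 12.39 and 12.54 in reversal chow livers. Every HFD array of that model, with or without CMPF, was above every chow array. The HFD groups did not differ beyond their spread from each other. On vehicle Ghr was 1.42-fold higher than on chow (log2 difference 0.51 ± 0.106 SE, limma adjusted p = 0.0253), and on CMPF 1.41-fold higher (0.49 ± 0.106, limma adjusted p = 0.0307). The background of that comparison was 2.0%, 1.61% as higher and 0.393% as lower. The 2 other Ghr probe sets differed by 0.60 each between reversal HFD and chow, with adjusted p of 0.203 and 0.264 over all probe sets. Without reversal chow array 2 the HFD difference was 0.43 (limma adjusted p = 0.0822), and the call was also lost in fits without chow array 3 or HFD array 2 or 3. All 10 Kupffer cell markers were higher on reversal HFD than on reversal chow (median difference 0.90, 0 of 10 past the test), and their summed log2 signal was 11.61 to 12.12 on CMPF-treated and 11.75 to 12.18 on HFD arrays, against 11.15 to 11.65 on chow arrays. The HFD and chow arrays did not overlap in that sum. They also did not overlap in the sum of 4 pancreas markers, at 9.99 to 10.41 on HFD against 7.56 to 9.57 on chow arrays. By group mean 3 of those 4 markers were lower on HFD. The part of either sum in the reversal results for Ghr and for the female-biased and lipid genes was not tested. In the prevention model Ghr was 12.74 and 12.73 in CMPF-treated and 12.45, 12.55 and 12.72 in HFD livers, against 12.74, 12.56 and 12.63 in chow livers. Those HFD and chow groups overlapped (log2 difference -0.07, 95% interval -0.30 to 0.15). The other probe sets of Ghr differed there by -0.61 and -0.93 on HFD against chow, with adjusted p of 0.134 and 0.0681 over all probe sets, so the probe sets of this gene disagreed in prevention.

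Stat5b, the main hepatic STAT5 gene, passed no test. In prevention it was 7.41 and 7.64 in CMPF-treated and 7.46, 7.18 and 7.61 in HFD livers, against 7.40, 7.29 and 7.02 in chow livers. In reversal it was 7.99, 7.98 and 8.28 in CMPF-treated and 8.15, 8.18 and 8.07 in HFD livers, against 8.11, 6.91 and 8.02 in chow livers. The low chow value came from array 2, and the HFD difference of 0.46 (limma adjusted p = 0.277) was 0.07 without it. The second Stat5b probe set had the opposite sign there, at -0.19 for HFD and -0.25 for CMPF on HFD against chow (adjusted p of 0.395 and 0.371 over all probe sets). Of 18 further genes of the GH receptor pathway and its negative regulators 15 were tested, and 1 changed in HFD against chow. That was Grb2, an adaptor protein, which rose in prevention (0.45 ± 0.113, limma adjusted p = 0.0372), where 1.74% of all genes rose. In reversal none of the 15 passed with HFD, and with CMPF none passed in either model.

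Igf1, the growth factor that GH induces in liver, fell on HFD in the prevention model and was at a like level with CMPF. Its signals were 11.71 and 11.78 in CMPF-treated and 11.64, 11.82 and 11.61 in HFD livers, against 12.42, 12.24 and 12.66 in chow livers. All 5 HFD samples were below all 3 chow samples, and the HFD groups overlapped. HFD against chow gave 0.596-fold (log2 difference -0.75 ± 0.182, limma adjusted p = 0.0331), and CMPF against HFD 0.05 (95% interval -0.38 to 0.49). CMPF on HFD against chow was -0.69 (limma adjusted p = 0.379, background 0.0%). All 4 Igf1 probe sets were lower on prevention HFD, between -0.22 and -0.75, and 2 of them passed over all probe sets. Igf1 signals in the reversal model were 12.37, 12.03 and 12.62 in CMPF-treated and 12.23, 12.32 and 12.29 in HFD livers, against 12.26, 11.59 and 12.27 in chow livers. The groups overlapped there (HFD against chow 0.24, limma adjusted p = 0.447). The other 3 probe sets had the opposite sign in that comparison, between -0.28 and -0.46, none past the test.

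RNA measures of the same prevention arrays differed with diet. The 3′ to 5′ index did not overlap between prevention HFD and chow arrays. With it as a covariate the Igf1 difference was -0.51 (limma adjusted p = 0.339). Hepatocyte markers summed to a log2 signal of 16.63 to 16.74 on prevention HFD arrays, against 16.75 to 16.85 on chow arrays, over 8 of 10 markers measured, none past the test. Endothelial markers summed to 10.82 to 11.02 on HFD arrays, against 10.47 to 10.77 on chow arrays, and 2 of 9 rose, Vwf by 0.99 and Stab2 by 0.52 (limma adjusted p = 0.0179 and 0.049). Of all genes 1.74% rose in that comparison. None of the Kupffer, stellate or lymphocyte markers tested passed. The stellate sum was 11.32 to 11.58 on HFD arrays, against 11.05 to 11.19 on chow arrays, and also did not overlap. The Kupffer and lymphocyte sums overlapped. For CMPF against HFD in prevention all 10 Kupffer markers were lower (median difference -0.56), none past the test. The part of these measures in the result was not tested beyond the index covariate. In whole liver, fewer cells of a type and less RNA per cell cannot be told apart.

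Igfals, the acid-labile subunit that holds IGF1 in its circulating complex, differed little. In prevention it was 9.66 and 9.66 in CMPF-treated and 9.67, 9.73 and 9.69 in HFD livers, against 9.83, 9.94 and 9.77 in chow livers. The groups did not overlap, but the HFD difference was -0.15 (limma adjusted p = 0.766). In reversal it was 10.36, 9.57 and 10.06 in CMPF-treated and 9.92, 10.15 and 9.98 in HFD livers, against 9.88, 8.66 and 9.83 in chow livers. The HFD difference of 0.56 (limma adjusted p = 0.221) was 0.16 without chow array 2, which held the low value. Of the IGF system, 10 binding proteins, receptors and relatives, none of the 10 passed in any comparison. Igfbp2, a binding protein, had the smallest p on prevention HFD (-1.53, limma adjusted p = 0.0512), and Igfbp1 in reversal CMPF against HFD (1.49, limma adjusted p = 0.906).

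Igf1 and Igfals varied together over the 9 reversal samples (Pearson r = 0.91, exact permutation p = 0.00357, adjusted 0.0324 over 10 relations; Spearman rho = 0.88, exact p = 0.00308, adjusted 0.0228). Without the 2 samples farthest from the median of Igf1 r was 0.89. These coefficients used the main Igf1 probe set only. As for every pair of genes here, the permutation ran across the diet groups. Its p-values therefore do not set a relation apart from differences between group means. On reversal chow array 2, where Igfals was 8.66, that probe set read 11.59. The other Igf1 probe sets read 12.27, 11.98 and 12.17 on that array, and their relation with Igfals was not tested. Over the 8 prevention samples r was 0.69 (exact p = 0.05, adjusted 0.125) and rho 0.69 (exact p = 0.0694, adjusted 0.174).

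Socs2 and Cish, suppressors of cytokine signalling that STAT5 induces and that damp the receptor, spread widely and passed no test. Socs2 was 8.80 and 7.61 in CMPF-treated and 9.09, 8.23 and 8.35 in HFD livers of the prevention model, against 9.83, 9.66 and 9.43 in chow livers. Both HFD groups lay below chow there and overlapped each other. The difference was -1.09 for HFD (95% interval -2.70 to 0.53, limma adjusted p = 0.399) and -1.44 for CMPF on HFD against chow (limma adjusted p = 0.571). All 6 Socs2 probe sets were lower on prevention HFD than on chow, between -0.11 and -1.09, none past the test. In reversal Socs2 was 8.82, 6.85 and 6.94 in CMPF-treated and 7.03, 9.50 and 7.34 in HFD livers, against 9.76, 7.38 and 10.14 in chow livers. Every group there spanned more than 1.9 log2 units, and the HFD difference of -1.14 (limma adjusted p = 0.375) was -1.99 without chow array 2 (limma adjusted p = 0.181).

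Cish was 6.36 and 6.27 in CMPF-treated prevention livers, against 8.53, 7.77 and 6.36 in HFD and 8.47, 8.66 and 7.79 in chow livers. Both CMPF samples lay at or below the lowest sample of either other group. CMPF against HFD gave -1.24 (95% interval -2.57 to 0.10, limma adjusted p = 0.657) and CMPF on HFD against chow -1.99 (-3.33 to -0.66, limma adjusted p = 0.399). In reversal Cish was 7.84, 6.36 and 6.80 in CMPF-treated and 6.65, 8.23 and 6.22 in HFD livers, against 6.66, 7.26 and 7.00 in chow livers and the groups overlapped. Socs2 and Cish had r = 0.76 over the 8 prevention samples (exact p = 0.0383, adjusted 0.125; rho = 0.79, exact p = 0.0279, adjusted 0.093) and r = 0.50 over the 9 reversal samples (exact p = 0.179, adjusted 0.358; rho = 0.53, exact p = 0.148, adjusted 0.296).

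Bcl6, the repressor, had the largest standard error of the 10 genes in every comparison of 2 groups. Its signals were 9.37 and 9.64 in CMPF-treated prevention livers, against 6.40, 8.02 and 9.69 in HFD and 5.93, 6.86 and 5.56 in chow livers. Both CMPF samples were above all chow samples, and the HFD group reached from chow levels to CMPF levels. CMPF on HFD against chow was 10.5-fold higher (log2 difference 3.39, 95% interval 1.05 to 5.74) with an unadjusted p of 0.00783 in limma and an adjusted p of 0.399. With the 3′ to 5′ index as a covariate that difference was 1.52 (limma adjusted p = 0.946). HFD against chow was 1.92 (-0.18 to 4.02, limma adjusted p = 0.242), or 0.18 with that covariate (limma adjusted p = 0.966), and CMPF against HFD 1.48 (-0.87 to 3.82, limma adjusted p = 0.805). The second Bcl6 probe set had the same signs, at 0.50 for HFD against chow and 1.11 for CMPF on HFD against chow.

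Bcl6 in the reversal model was 6.58, 10.03 and 6.45 in CMPF-treated and 6.44, 7.01 and 9.32 in HFD livers, against 6.77, 7.82 and 6.65 in chow livers. One array of each HFD group was above 9 and the rest lay near chow. CMPF against HFD was 0.09 (95% interval -2.01 to 2.19). On the reversal CMPF array with Bcl6 at 10.03 Cish was 6.36 and Socs2 6.85, and on the reversal HFD array with Bcl6 at 9.32 Cish was 6.22 and Socs2 7.34. Arrays with low Bcl6 had both low and high values of these genes. On reversal CMPF array 3, with Bcl6 at 6.45, Cish was 6.80 and Socs2 6.94. On reversal HFD array 2, with Bcl6 at 7.01, Cish was 8.23 and Socs2 9.50.

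**Figure D2:**
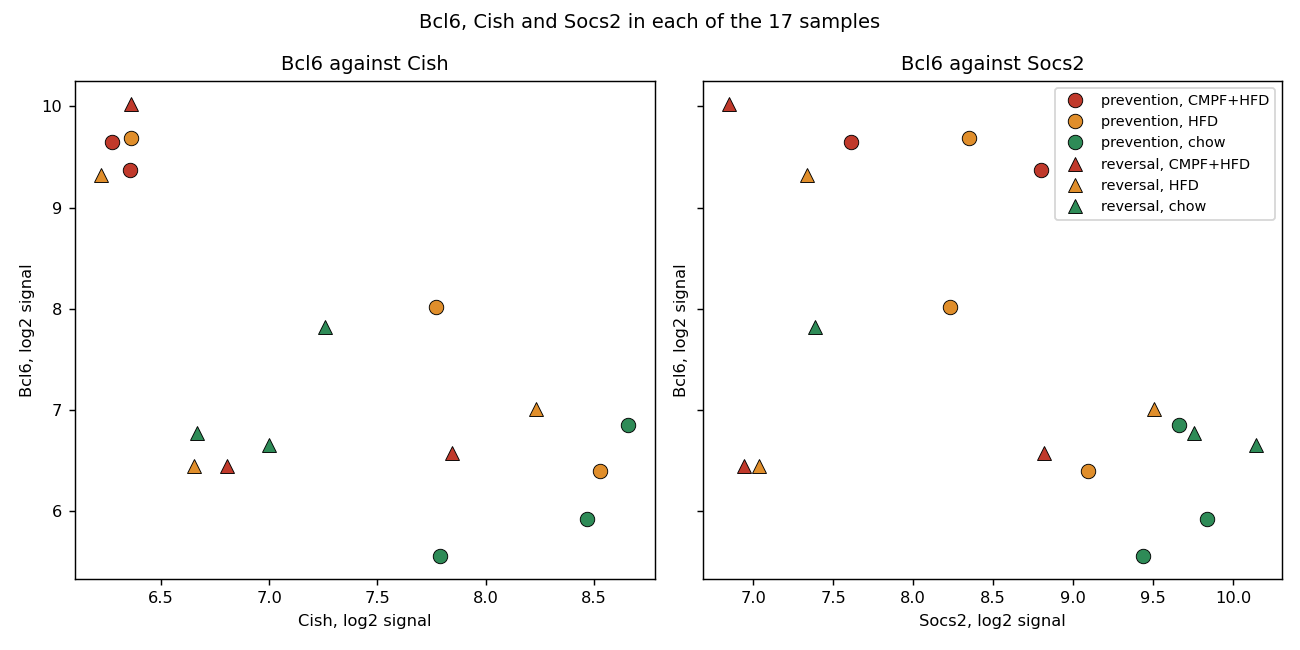
Bcl6 signal (y axis, log2) against Cish (left, x axis, log2) and Socs2 (right, x axis, log2) in each of the 17 samples, circles for prevention and triangles for reversal. The samples with Bcl6 above 9 have Cish between 6.22 and 6.36, while Socs2 runs from 6.85 to 8.80 in them.

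Cux2, the repressor of male-biased genes in female liver, passed no test. Its main probe set had the lowest mean of the 10 genes, 6.19, but passed the filter on dim signals. The signal of its main probe set was 6.02 and 6.08 in CMPF-treated and 6.24, 5.96 and 6.28 in HFD livers of the prevention model, against 5.93, 6.10 and 6.10 in chow livers. In reversal it was 6.22, 6.34 and 6.10 in CMPF-treated and 6.23, 6.36 and 6.30 in HFD livers, against 6.36, 6.48 and 6.32 in chow livers. The 95% interval for HFD against chow in prevention was -0.11 to 0.35, and for CMPF against HFD in reversal -0.30 to 0.15. The other 2 Cux2 probe sets, both under the filter on dim signals, differed more in prevention. They gave 0.53 and 0.23 for HFD against chow (adjusted p of 0.0944 and 0.302 over all probe sets) and -0.69 and -0.36 for CMPF against HFD (adjusted p of 0.470 and 0.634 over all probe sets). Of 18 liver transcription factors and receptors that act with STAT5 15 were tested, and none passed with HFD or CMPF in either model. Nr3c1, the glucocorticoid receptor, had a difference of -0.98 on prevention HFD (limma adjusted p = 0.0725), and Nr0b2, the corepressor SHP, 1.45 for CMPF against HFD in prevention (limma adjusted p = 0.252).

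Hsd3b5 fell on HFD in the prevention model. Its signals were 11.67 and 11.64 in CMPF-treated and 9.57, 9.76 and 11.14 in HFD livers, against 12.25, 11.88 and 11.68 in chow livers. By group mean the order was chow, CMPF on HFD, then HFD. The lowest chow value, 11.68, was barely above the highest CMPF value, 11.67. A CMPF sample there was the average of near-identical arrays. How many of all genes had such an order was not counted. HFD against chow was 0.291-fold (log2 difference -1.78 ± 0.435, limma adjusted p = 0.0331). CMPF against HFD was 2.83-fold (log2 difference 1.50, 95% interval 0.46 to 2.54), with an unadjusted p of 0.00805 and an adjusted p of 0.471 in limma. CMPF on HFD against chow was -0.28 (-1.32 to 0.76, limma adjusted p = 0.868). With the 3′ to 5′ index as a covariate HFD against chow was -2.50 (limma adjusted p = 0.0573) and CMPF against HFD 1.44 (limma adjusted p = 0.174).

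Hsd3b5 in the reversal model was 12.11, 12.01 and 11.86 in CMPF-treated and 10.21, 12.22 and 11.70 in HFD livers, against 11.84, 11.59 and 11.65 in chow livers. One HFD array was low and the other 2 lay within or above the chow range. HFD against chow was -0.32 (limma adjusted p = 0.689) and CMPF against HFD 0.62 (95% interval -0.32 to 1.55).

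Slco1a1 had the same order of group means in prevention. It was 11.07 in both CMPF samples and 10.37, 10.07 and 10.69 in HFD livers, against 11.78, 11.12 and 11.81 in chow livers. HFD against chow was 0.437-fold (log2 difference -1.19 ± 0.213, limma adjusted p = 0.015), and its second probe set differed by -1.97 (adjusted p = 0.00894 over all probe sets). CMPF against HFD was 1.62-fold (0.69, 95% interval 0.18 to 1.20), with an unadjusted p of 0.0115 and an adjusted p of 0.481 in limma. CMPF on HFD against chow was -0.50 (limma adjusted p = 0.505). The second probe set gave -1.30 in that comparison (limma adjusted p = 0.2895 over all probe sets). For CMPF against HFD it gave 0.67 (limma adjusted p = 0.742 over all probe sets). With the index as a covariate HFD against chow was -0.97 (limma adjusted p = 0.149). In reversal Slco1a1 was 11.50, 11.32 and 11.78 in CMPF-treated and 11.37, 11.32 and 11.77 in HFD livers, against 11.60, 11.10 and 11.36 in chow livers, with the groups overlapping throughout. The calls of Igf1, Hsd3b5 and Slco1a1 on prevention HFD were each lost in the fits without chow array 1, chow array 3, HFD array 1 or HFD array 2, and that of Igf1 also without HFD array 3.

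**Figure D3:**
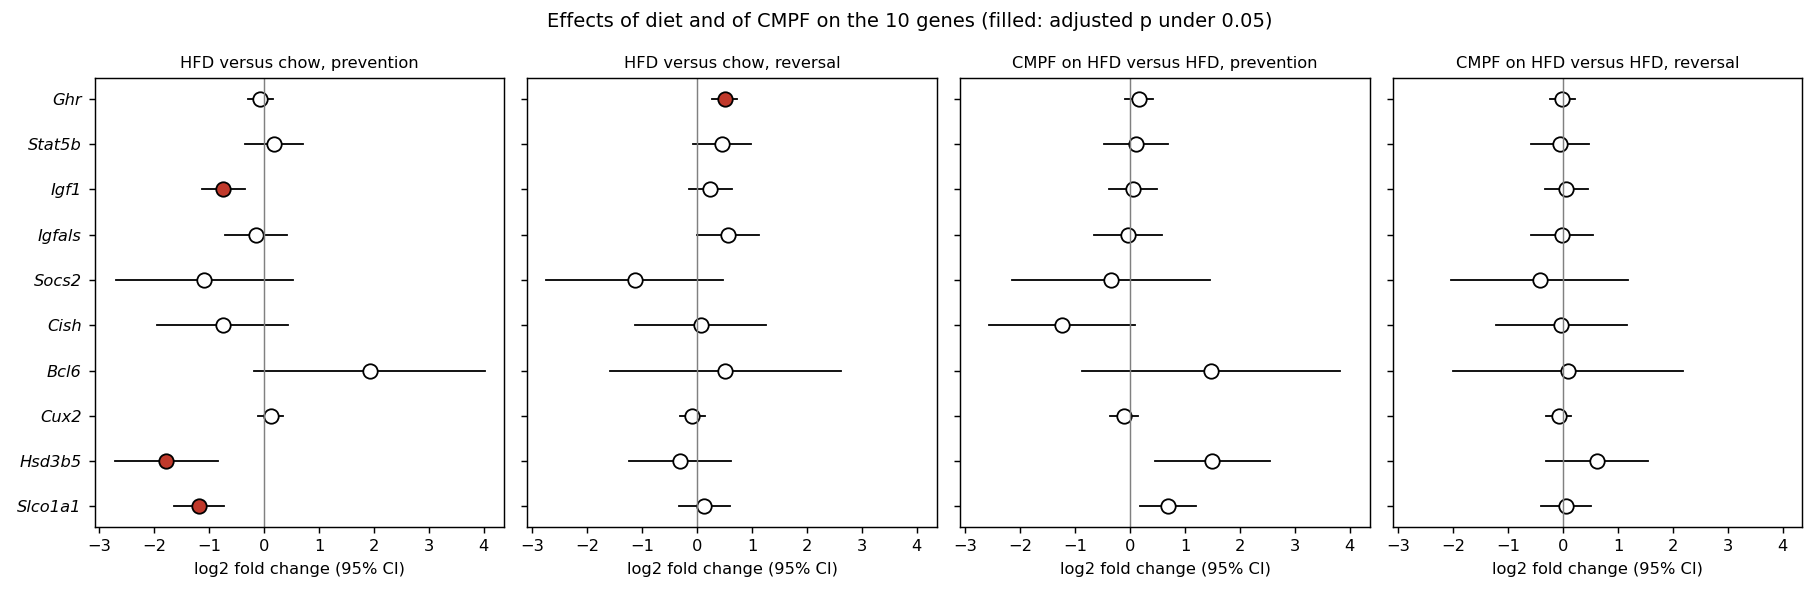
Log2 difference (x axis, point) with its 95% confidence interval (bar) for the 10 genes in HFD versus chow and CMPF on HFD versus HFD in each model; filled points passed an adjusted p of 0.05. Filled points are Igf1, Hsd3b5 and Slco1a1 below 0 for prevention HFD and Ghr above 0 for reversal HFD, and none is filled for CMPF.

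Hsd3b5 and Slco1a1 had a Pearson correlation of 0.87 over the 8 prevention samples (exact permutation p = 0.00647, adjusted 0.0324; Spearman rho = 0.90, exact p = 0.00456, adjusted 0.0228). Without the 2 samples farthest from the median of Hsd3b5 r was 0.73. Both genes fell on HFD and the permutation runs across the diet groups, so this coefficient restates those falls and gives no relation apart from them. Within the chow group the highest Hsd3b5 value stood beside a Slco1a1 of 11.78 and the lowest beside 11.81. Over the 9 reversal samples r was 0.14 (exact p = 0.72, adjusted 0.80; rho = 0.07, exact p = 0.88, adjusted 0.948). Bcl6 and Cux2 were each set against Hsd3b5 in both models, and the 4 Pearson coefficients lay between -0.32 and 0.22, with exact p of at least 0.449.

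The effect of HFD differed between models for 3 of the 10 genes, where 11.0% of all genes passed this test of the difference, 8.84% as higher and 2.14% as lower. Reversal minus prevention was 0.58 for Ghr (limma adjusted p = 0.0311), 0.98 for Igf1 (limma adjusted p = 0.0325) and 1.33 for Slco1a1 (limma adjusted p = 0.0251). For Hsd3b5 it was 1.46 (limma adjusted p = 0.124). The other 2 probe sets of Ghr gave 1.21 and 1.53 and the second of Slco1a1 2.25, with adjusted p of 0.0430, 0.0379 and 0.0238 over all probe sets. The Igf1 value rested on its main probe set: the other 3 gave -0.23, 0.22 and 0.18, none past the test, and the mean of its probe sets gave 0.29 (limma adjusted p = 0.236). With the index as a covariate 0 of all genes passed this test. The difference was then 0.58 for Ghr (limma adjusted p = 0.251), 0.65 for Igf1 (limma adjusted p = 0.368), 1.02 for Slco1a1 (limma adjusted p = 0.285) and 2.45 for Hsd3b5 (limma adjusted p = 0.189). The Ghr difference was as large as without the covariate and that of Hsd3b5 larger, while those of Igf1 and Slco1a1 were smaller. The index did not overlap between prevention HFD and chow arrays, so index and diet cannot be told apart there. The sizes of these differences are therefore no measure of the part of the index. Without the covariate 2 of 9 endothelial, 1 of 10 stellate and 1 of 3 cholangiocyte markers passed as lower. Of 8 hepatocyte markers 1 passed as higher. The part of these markers in the difference was not tested. The effect of CMPF differed between models for 0 of the 10 (background 0.0%, with 1048 genes at an unadjusted p under 0.05).

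Other male-biased genes under GH control were described from a list of 24, of which 19 were measured and tested. This list and the female-biased and lipid lists below were chosen with earlier results of these data known. Their counts therefore describe these data and are no test against the share of all genes. On prevention HFD 8 of 19 fell and none rose, where 3.83% of all genes fell and 1.74% rose, and all 19 differences were negative, with a median of -0.77. Ugt2b38 and Ugt2b1, UDP-glucuronosyltransferases, fell, with log2 differences of -2.97 and -0.97 (limma adjusted p = 0.00931 and 0.0215). The complement components C6 and C8b fell, with -1.82 and -1.28 (limma adjusted p = 0.0105 and 0.0178), and Keg1 fell by 1.45 (limma adjusted p = 0.012). With the index as a covariate 4 of 19 passed, and without 1 of the 6 arrays 0 to 7 did, with 1 without chow array 1, 0 without chow array 3, 2 without HFD array 1 and 3 without HFD array 2. For CMPF against HFD in prevention 16 of 19 differences were positive with a median of 0.36, and none passed. The median over all genes tested was 0.0167 there, and the share of all genes with a positive sign was not counted. The HFD arrays are the same in both comparisons, so low values on them lower the first difference and raise the second. These signs are therefore no separate result. The smallest p values there belonged to C6 (1.34, limma adjusted p = 0.252) and Ugt2b1 (0.85, limma adjusted p = 0.359).

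None of the 19 male-biased genes passed in HFD against chow (median -0.24) or in CMPF against HFD (median 0.27) of the reversal model. Ugt2b38 differed by -1.70 on HFD (limma adjusted p = 0.0539) and Serpina12, the serpin vaspin, by -1.37 (limma adjusted p = 0.102). For CMPF on HFD against chow Scara5, a ferritin receptor, rose by 2.74 (limma adjusted p = 0.0109) and Ugt2b38 fell by 1.93 (limma adjusted p = 0.0368). Ugt2b38 lost that call without any 1 of the 6 arrays, and Scara5 in the fit of one model alone. For reversal CMPF on HFD against chow 1.61% of all genes rose and 0.393% fell.

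Of 23 female-biased genes 17 had a probe set and 12 were tested. On prevention HFD 3 of 12 rose relative to chow, the cytochromes Cyp2b9 (3.68, limma adjusted p = 0.0105) and Cyp2b13 (3.35, limma adjusted p = 0.0178) and the monooxygenase Fmo2 (0.91, limma adjusted p = 0.0261). On reversal HFD 3 rose, Cyp2b9 by 5.19 (limma adjusted p = 0.000766), Cyp2b13 by 3.40 (limma adjusted p = 0.0181) and Hao2, a hydroxy acid oxidase, by 3.69 (limma adjusted p = 0.0155). Of all genes 1.74% rose on prevention HFD and 2.17% on reversal HFD. For CMPF against HFD none of the 12 passed (background 0.0% in prevention and 0.0378% in reversal). The differences were negative for 10 of 12 in both models, with medians of -0.46 in prevention and -0.29 in reversal. Over all genes tested the medians were 0.0167 and -0.0093. The HFD arrays are again shared with HFD against chow, so these signs are no separate result. Cyp2b9 differed by -3.24 (limma adjusted p = 0.0859) and Cyp2b13 by -3.54 (limma adjusted p = 0.0983) in reversal CMPF livers relative to HFD livers. As background, the Cyp2b genes also respond to xenobiotic receptors. In prevention the count of 3 was 1 with the index as a covariate, 0 without chow array 3 and 1 without chow array 1, HFD array 1 or HFD array 2. In reversal it was 1 without HFD array 1.

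**Figure D4:**
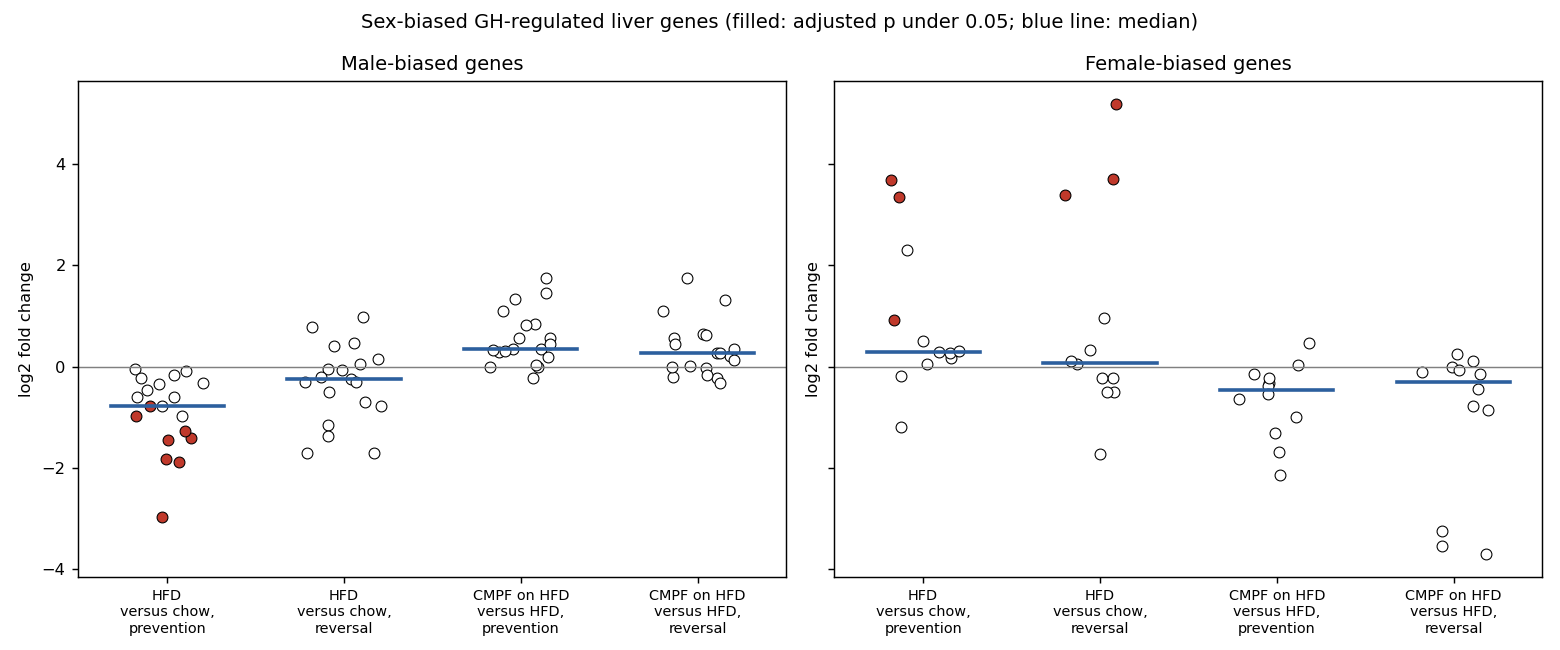
Log2 difference (y axis) of each tested male-biased (left, 19 genes) and female-biased (right, 12 genes) gene in HFD versus chow and CMPF on HFD versus HFD, with filled points past an adjusted p of 0.05 and a line at each median. On prevention HFD all 19 male-biased genes lie below 0, and with CMPF the medians of the male-biased list are above 0 and those of the female-biased list below it. The comparisons of a model share its HFD arrays.

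A set of 8 lipid genes that rise when hepatic GH or STAT5 signalling is lost in mice were also followed, 7 of them tested. On prevention HFD 4 of 7 rose: Mogat1 (1.59, limma adjusted p = 0.0157), an acyltransferase of triglyceride synthesis, the fatty acid transporter Cd36 (2.25, limma adjusted p = 0.0291), the droplet protein Plin4 (1.71, limma adjusted p = 0.0293) and the lipoprotein receptor Vldlr (1.83, limma adjusted p = 0.0449). With the index as a covariate that count was 0, as it was without chow array 1 or 3 or HFD array 1 or 2. Of all genes 1.74% rose on prevention HFD and 2.17% on reversal HFD. On reversal HFD 3 of 7 rose, Mogat1 (2.64), Pparg (1.72) and Cd36 (3.22), with limma adjusted p of 0.000766, 0.000766 and 0.00752. The Kupffer marker sum given beside Ghr differed between the same arrays. With CMPF against HFD in reversal Mogat1 fell by 2.10 (limma adjusted p = 0.0271), while the 10 GH axis genes lay between -0.42 (Socs2) and 0.62 (Hsd3b5) in that comparison, none past the test. The Mogat1 call was lost with the mean of its probe sets, in the fit of one model alone, and in fits without HFD array 3 or any 1 CMPF array. In reversal CMPF against HFD 0.0227% of all genes fell.

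For each of the 10 genes the 3 tested genes with the most similar pattern were found by Pearson r over the 17 samples, after the mean of each model was taken off. Hsd3b5 was most like Cyp7b1 (0.94), the male-biased oxysterol hydroxylase, then Hsd3b2 (0.93) and Epb41l4b (0.89). Slco1a1 was most like Timm9 (0.94), Nox4 (0.94) and Mxi1 (0.93), and Igf1 like Zcchc24 (0.96), Vkorc1 (0.94) and Rpl6 (0.94). Ghr was most like Gulo (0.90), Svip (0.89) and Rgn (0.89), Stat5b like Parp1 (0.93), Usp10 (0.92) and Ppp1r37 (0.91), and Igfals like Ap2b1 (0.94), Ccs (0.94) and 1700066J03Rik (0.93). Cish was most like Zfp655 (0.90), Onecut1 (0.81) and Rgs3 (0.77), and Socs2 like Crb3 (0.83), Kcnt2 (0.82) and Ubxn1 (0.76). Bcl6 was most like Ccdc93 (0.86), Stard8 (0.82) and Rabl6 (0.81), and Cux2 like Glrx3 (0.84), Rfx3 (0.81) and Chst1 (0.81). The points share arrays and group means, so these coefficients only describe the samples. Among the 10 genes themselves the highest was Igf1 with Slco1a1 (0.76) and the lowest Cish with Bcl6 (-0.74).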

How the data were processed

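Livers were profiled on 18 Affymetrix arrays from 200 ng of RNA each. The authors deposited log2 RMA signals made with Affymetrix Expression Console 1.1, per the submitters' processing notes. Probe sets were named through the platform annotation: 34945 had 1 gene symbol, 932 several and 9160 none, and 34741 matched RefSeq by gene ID. The dimmest 40% of non-control probe sets (mean under 4.01) were dropped and the probe set with the highest mean stood for each gene. One limma fit (limma 3.58.1, R 4.3.3) of 6 group means over 17 samples gave all comparisons, with 11 residual and 3.02 prior degrees of freedom and Benjamini-Hochberg adjustment. The test was checked on simulated data. P-values measure the spread between arrays, which may be technical. Named are all 10 genes and, per list, up to 5 past the threshold by smallest p, otherwise up to 2 with the smallest p. Hao2, Mogat1 and Ugt2b38 are repeated where the same list is taken up again. Stab2 and Vwf are the only other-cell markers past the test in a comparison of 2 groups. The members and lists were chosen with earlier results of these data known, so their counts are no test against the share of all genes. Alternatives were 8 kinds of setting, leaving out single arrays among them.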

Additional observations from a re-analysis of the deposited data

Results flagged for a closer look

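Results for 3 genes stood out because the effect of HFD relative to chow differed between the models by the interaction test of limma. For Ghr the HFD effect in the reversal model minus that in the prevention model was 0.58 (limma adjusted p = 0.0311), for Igf1 0.98 (limma adjusted p = 0.0325) and for Slco1a1 1.33 (limma adjusted p = 0.0251). With the mean of its probe sets the Igf1 difference was 0.29 (limma adjusted p = 0.236), and its other 3 probe sets gave -0.23, 0.22 and 0.18. Reversal chow array 2 had the lowest Ghr, Igf1 and Slco1a1 signals of its group. Without it the differences were 0.50, 0.76 and 1.20, with limma adjusted p of 0.0608, 0.0529 and 0.0469. All 3 calls were lost without prevention chow array 1 or 3 or reversal HFD array 1. They were also lost with the 3′ to 5′ index as a covariate (limma adjusted p = 0.251, 0.368 and 0.285). In prevention the index was higher on HFD than on chow arrays (mean 2.84 against 1.43), and in reversal lower (2.62 against 3.15). The models also differ in diet length and injection schedule and in the mean signal of their arrays, which cannot be told apart.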

How the results depend on the processing

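Of 1110 values of the 10 genes under alternatives, 0 called values reversed and 75 uncalled ones changed sign. With all 18 arrays kept separate, 36 genes passed in prevention CMPF against HFD and 6 in prevention CMPF on HFD against chow, where the averaged fit gave 0 and 0, and none of the 10 genes was called. With the 3′ to 5′ index as a covariate 17 genes passed on prevention HFD (737 without it), 17 in reversal CMPF against HFD (5 without it) and 0 in the difference of the HFD effect (1452 without it); the 10 genes then gave 0 calls on prevention HFD (3 without it) and 0 in that difference (3 without it). Quantile normalisation gave 1 gene in prevention CMPF against HFD and 3 in reversal CMPF against HFD, and the mean of probe sets 0 in the same reversal comparison. In a fit of one model alone 1151 genes passed on prevention HFD, 38 on reversal HFD, 0 in reversal CMPF against HFD and 59 in reversal CMPF on HFD against chow. The Ghr call on reversal HFD and that in reversal CMPF on HFD against chow both went to 0 called members with the mean of probe sets, quantile normalisation, the replicate block and one model alone. The replicate block gave 200 genes on reversal HFD (324 without it) and 3 in reversal CMPF against HFD, and Hsd3b5 on prevention HFD had a limma adjusted p of 0.0548 with it; of 18 same-numbered pairs 6 had a correlation of deviations over 0.1 (range -0.37 to 0.44), so the numbers do not pair the samples. Leaving out 1 array at a time gave 8 to 1624 genes on prevention HFD, 0 to 1 in prevention CMPF against HFD and against chow, 99 to 577 on reversal HFD, 0 to 6 in reversal CMPF against HFD, 73 to 264 in reversal CMPF on HFD against chow and 0 to 2400 in the difference of the HFD effect. Of the 10 genes it left 0 to 3 on prevention HFD, 0 to 1 on reversal HFD and in reversal CMPF on HFD against chow, and 0 to 3 in the difference. The cause of these shifts was not tested, apart from the fewer samples each such fit has. Low signal limits the second Bcl6 probe set (mean 4.62) and the Cux2 probe sets under the filter (means 3.28 and 2.93).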

Other observations

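Across all pairs of the 10 genes within each model, a family of 90 relations looked at after the values were seen, Cish and Bcl6 had a Pearson r of -0.89 over the 8 prevention samples (exact permutation p = 0.0102, adjusted 0.153) and a Spearman rho of -0.69 (exact p = 0.0694, adjusted 0.329). Without the 2 samples farthest from the median of Cish r was -0.79. Socs2 and Bcl6 had r = -0.82 there (exact p = 0.0181, adjusted 0.201) and rho = -0.76 (exact p = 0.0368, adjusted 0.329). Over the 9 reversal samples Cish and Bcl6 had r = -0.49 (exact p = 0.16, adjusted 0.436) and Socs2 and Bcl6 r = -0.46 (exact p = 0.231, adjusted 0.533). Spearman rho there was -0.25 for Cish and Bcl6 (exact permutation p = 0.521, adjusted 0.732). For Socs2 and Bcl6 it was -0.10 (exact permutation p = 0.81, adjusted 0.90). No relation of these pairs passed the adjustment over the family. The permutation ran across the diet groups here too.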
